A study of Rattus norvegicus with 19 samples.

Results

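The genes described here encode 7 subunits of the GABA-A receptor: the alpha subunits Gabra2, Gabra3, Gabra4 and Gabra5, the beta subunits Gabrb1 and Gabrb2, and the delta subunit Gabrd. They were chosen by gene symbol from the 14218 genes that the platform annotation names by 1 gene per probe set. A probe set is a group of oligonucleotides on the array that reads 1 transcript. The 7 genes had 10 probe sets, and where a gene had several, the one that was brightest on average was used. The RNA was somatosensory cortex RNA of adult Wistar rats, all male. In set 1 (10 arrays), the cortex was perfused with artificial cerebrospinal fluid (ACSF) that carried deoxycholic acid (2 mM), called deoxycholate below and used to open the blood-brain barrier, and sampled at 7, 24 and 48 h. Other set 1 animals received albumin (0.1 mM) or the cytokine TGF-β1 (10 ng/ml) in ACSF and were sampled at 8, 24 and 48 h. Each agent and time in set 1 was 1 array, and the only control was 1 sham-operated rat at 24 h. In set 2 (9 arrays, all at 24 h), 3 arrays came from rats given bovine serum albumin (0.1 mM) and 2 from sham-operated rats. Another 4 came from rats given albumin together with blockers of the TGF-β receptor, which were an antibody to TGF-βR2 (50 µg/ml) and the kinase inhibitor SB431542 (100 µM). No group received the blockers without albumin, and the labels do not say that the sham animals were perfused.

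GABA is the main inhibitory transmitter of the cortex, and the GABA-A receptor is a chloride channel built of subunits around a pore. Alpha and beta subunits form the GABA binding sites, and the alpha subunit sets much of the receptor's kinetics and its response to benzodiazepines. Receptors with a gamma subunit gather at synapses. Receptors with delta, which in the forebrain partners mainly alpha4, or with alpha5 lie largely outside synapses, where low ambient GABA holds them partly open and gives a tonic inhibitory current.

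Upstream sequences are shown first for the 4 subunits that stood outside the sham range on all 3 albumin arrays of set 2, from the RefSeq promoter table of assembly GRCr8, which held 6 of the 7 genes. Gabrd, with the lowest values relative to sham, and Gabra4, its usual partner, are given as the 250 bases before the annotated start, 5′ to 3′. The Gabrd stretch lies at chr5:171252710-171252959 on the minus strand and the Gabra4 stretch at chr14:36944497-36944746 on the plus strand. Capitals mark a GC box (GGGGCGGGG) in Gabrd and an EGR site (GCGNGGGCG) in Gabra4.
Gabrd: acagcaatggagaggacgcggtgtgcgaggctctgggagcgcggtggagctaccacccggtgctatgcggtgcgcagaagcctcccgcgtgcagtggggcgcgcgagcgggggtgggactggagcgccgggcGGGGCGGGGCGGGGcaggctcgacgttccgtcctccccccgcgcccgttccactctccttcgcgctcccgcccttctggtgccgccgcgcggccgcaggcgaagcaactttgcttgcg
Gabra4: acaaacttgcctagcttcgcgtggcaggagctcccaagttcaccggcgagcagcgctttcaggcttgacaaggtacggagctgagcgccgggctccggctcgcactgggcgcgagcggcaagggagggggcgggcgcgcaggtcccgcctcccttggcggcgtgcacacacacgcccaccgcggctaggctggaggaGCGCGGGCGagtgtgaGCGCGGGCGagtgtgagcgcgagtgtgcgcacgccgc
The beta subunit genes Gabrb1 and Gabrb2 stood on opposite sides of sham in set 2, and both held the palindrome CGCATGCG, the core of the binding motif of NRF1. It is shown in capitals within 30 bases, at chr14:36902903-36902932 (minus strand) for Gabrb1 and chr10:27439688-27439717 (plus strand) for Gabrb2.
Gabrb1: agtacactctgCGCATGCGcaggtccattc
Gabrb2: ggtacgccgtgCGCATGCGctccacattag

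These motifs were chosen after the sequences had been read, and the palindrome was first searched with 1 more base on each side (10 bases) and then shortened. The longer form, also held by both genes, occurred in 0.762% of the table's stretches. A match is a description of the letters only. On either strand, the palindrome occurred in 1.47% of the 33469 promoter stretches of 250 bases in the table, the GC box in 9% and the EGR site in 4.29%. In Gabrb1 the palindrome ended 21 bases before the start, and in Gabrb2 it ended 87 bases before it. Gabrd held the GC box at 2 overlapping positions and Gabra4 the EGR site at 2 separate ones. The cyclic AMP response element TGACGTCA, held by 1.59% of the stretches, was in none of the 6. No member's stretch matched more than 1 of these motifs.

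All values are log2 signals, so a difference of -1 is a halving, and differences were taken only within a set. Between the arrays of a set, an array's median correlation with the others over all genes was 0.985 to 0.992 in set 1 and 0.990 to 0.995 for 8 arrays of set 2. Albumin replicate 2 of set 2 stood apart at 0.977, and the subunits' differences from or to albumin in set 2 are given with and without it. All 15 neuron markers were above the detection filter on these cortex arrays. In bulk tissue, fewer cells of a type and less RNA per cell cannot be told apart. The labels do not tie a replicate to an animal beyond its number, so p-values measure the spread between these arrays.

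No subunit passed the test in any of the 12 comparisons (0 of 84 tests in limma at an adjusted p below 0.05, 17 at an unadjusted p below 0.05). Over all genes, 444 to 2208 of 10330 per comparison in set 2 had an unadjusted p below 0.05. In set 1 it was 749 to 2085 of 10019. The comparisons share arrays, so the 84 tests are not independent. The lowest adjusted p was 0.0817, for Gabrb2 between deoxycholate and sham. What follows describes where the arrays stood and how far apart.

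Cortex given albumin in set 2 had lower values than sham for 6 of the 7 subunits, and for Gabrb1 a higher one. The median difference over the subunits was -0.44, against 0.02 over all 10330 genes tested, of which 47.7% had a difference below 0. Without albumin replicate 2 the median was -0.08, with 4 subunits below sham and 3 above. By the test, 0 of the 7 passed, against 1.33% of all genes. Gabrd, Gabrb2 and Gabra4 were lower on all 3 albumin arrays than on both shams, a separation found for 19.2% of genes in that direction. Gabrb1 was higher on all 3, as were 22.2% of genes. In 6 of the 7 subunits the lowest of the 7 treated arrays was albumin replicate 2.

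Gabrd, the subunit that gives receptors their place outside the synapse, had a log2 signal of 10.04 and 9.81 on the sham arrays. On the albumin arrays it was 9.10, 7.84 and 9.45. No albumin array reached the lower sham, and replicate 2 lay farthest below. The fitted difference was -1.13 ± 0.40 (SE), or 2.19-fold lower, with an unadjusted p of 0.0217 and an adjusted p of 0.164 by limma. It was the only subunit of the 7 with an unadjusted p below 0.05 here, which 8.38% of genes had with a lower value. Without albumin replicate 2 the difference was -0.65. With the mean of the neuron markers as a covariate it was -0.88. A second probe set for Gabrd gave a difference of -1.38, while the last of the 3 probe sets stayed at a signal of 2.14 on average.

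Of the beta subunits, Gabrb2 lay below sham and Gabrb1 above. Gabrb2, the usual beta partner of synaptic receptors, had values of 13.01 and 13.06 on the shams, and of 12.82, 11.50 and 12.66 with albumin. The difference was -0.71 ± 0.42 (adjusted p = 0.356, limma), and -0.30 without replicate 2. Gabrb1 had 10.06 and 10.09 on the shams and 10.92, 10.44 and 10.25 with albumin. Its difference was 0.46 ± 0.25 (adjusted p = 0.307, limma). It was 0.51 without albumin replicate 2 and 0.27 without replicate 1, which had the highest value. A fit of all 19 arrays, which pools the albumin and sham arrays of both sets, gave 0.20.

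Among the alpha subunits, Gabra4, the partner of delta, was the one whose albumin arrays all lay below sham. It read 9.76 and 10.01 on the shams and 9.74, 8.66 and 9.55 with albumin, a difference of -0.57 ± 0.29 (adjusted p = 0.289, limma). The upper albumin array was 0.02 below the lower sham, and without replicate 2 the difference was -0.24. Gabra5, the other subunit of tonic currents, differed by -0.44 and, without replicate 2, by -0.08. Gabra2 and Gabra3 are alpha subunits of synaptic receptors that also bind benzodiazepines. They differed by -0.21 and -0.14, and with replicate 2 left out by 0.11 and 0.06, on the other side of 0.

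**Figure D1:**
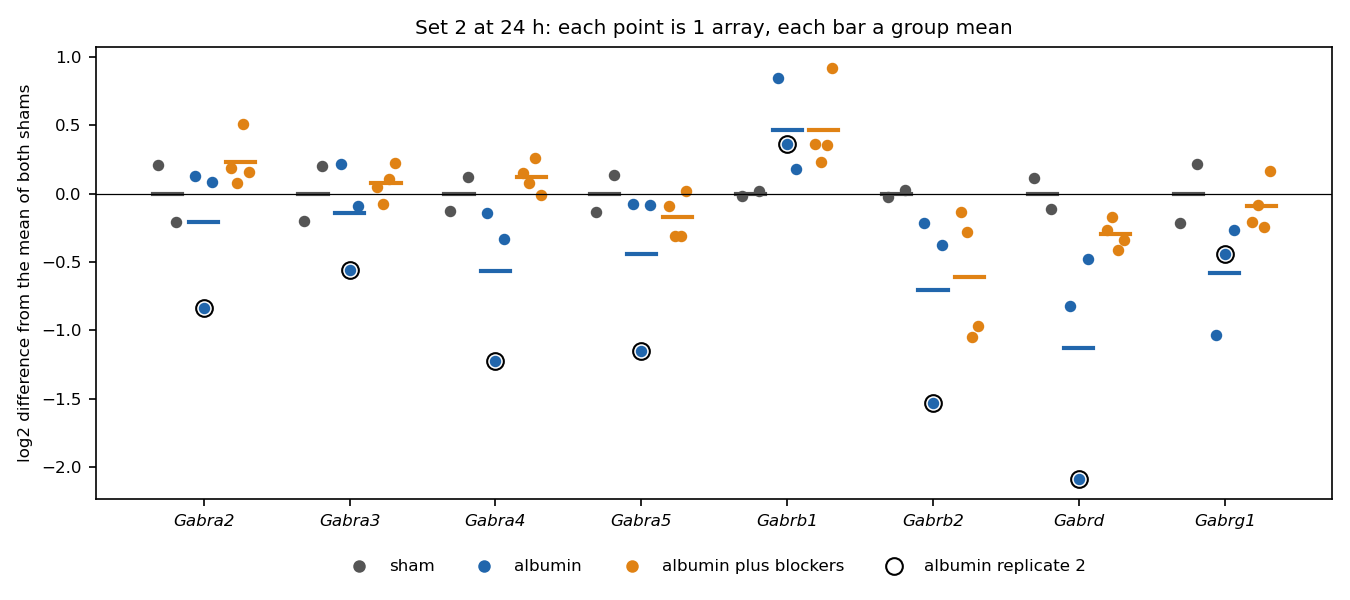
Log2 difference of each set 2 array from the mean of both shams (vertical axis) for the 7 subunits and Gabrg1 (horizontal axis), with 1 point per array and a bar at each group mean; circles mark albumin replicate 2. Gabrb2 and Gabrd lie below both shams on all 7 treated arrays and Gabrb1 above on all 7, and albumin replicate 2 is the lowest treated array for 6 of the 7 subunits.

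Markers of other cells differed on the same arrays. The mean of the 9 meningeal markers lay between -3.42 and -2.18 of sham with albumin, and that of the 7 astrocyte markers between -1.01 and -0.19. Taken singly, the astrocyte markers went both ways, with 5 lower than sham and 2 higher, from -2.44 to 1.27. The neuron marker mean ranged from -0.39 (replicate 2) to 0.13, and 12 of the 15 neuron markers were lower with albumin than with sham (lowest -0.34). The red cell marker mean was 0.52 to 1.96 above sham with albumin and 0.98 to 2.39 with the blockers. The thalamic marker mean was 0.11 to 0.89 and 0.09 to 0.50 above. With albumin and with the blockers, 1 of the 4 thalamic markers was below sham. With the neuron marker mean as a covariate, the albumin difference was -0.44 for Gabrb2, -0.41 for Gabra4, -0.27 for Gabra5, -0.06 for Gabra2, -0.05 for Gabra3 and 0.50 for Gabrb1. The part of the other markers in the subunit differences was not tested.

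With the TGF-β receptor blockers added, all 7 subunits had higher means than with albumin alone. The median difference was 0.26, against -0.00 over all genes, 49.4% of which lay above 0, and 0 of the 7 passed (0.0194% of genes did). Without albumin replicate 2 the median was 0.01, with 4 subunits above albumin and 3 below. Gabrd and Gabra4 were higher on all 4 blocker arrays than on all 3 albumin arrays, as 7.32% of genes were. These 2 also had an unadjusted p below 0.05, as 7.56% of genes did with a higher value. Gabrd read 9.66, 9.75, 9.51 and 9.59 with the blockers, 0.83 ± 0.33 above albumin (adjusted p = 0.274, limma). Gabra4 read 10.03, 9.96, 10.14 and 9.87, which is 0.69 ± 0.24 above albumin (adjusted p = 0.237).

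Both differences were smaller without albumin replicate 2, at 0.35 for Gabrd and 0.36 for Gabra4. The other subunits overlapped. Gabra2 differed by 0.44, Gabra5 by 0.26, Gabra3 by 0.22 and Gabrb2 by 0.10. Gabrb1 differed by 0.01, with a 95% interval from -0.47 to 0.48. Without replicate 2, Gabra2 was at 0.13 and Gabra3 at 0.01, and Gabra5 (-0.09), Gabrb1 (-0.05) and Gabrb2 (-0.31) lay below albumin. The comparison shares its albumin arrays with the one against sham, so the 2 are not independent. The mean of the meningeal markers lay between -1.65 and -0.37 of sham with the blockers, closer to sham than on any array with albumin alone. Its part in the result was not tested.

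With the blockers, Gabrb2, Gabrd and Gabrb1 lay outside the range of both shams on every array. Gabrb2 read 12.90, 12.76, 11.99 and 12.07, below both shams on every array. These 4 values fell into 2 near the shams and 2 about 1 unit lower. The difference from sham was -0.61 ± 0.40, against -0.71 with albumin alone. Gabrd also stayed below both shams on all 4, by a mean of -0.30 ± 0.38, and 8.32% of genes were lower on every blocker array than on both shams. Gabrb1 read 10.44, 10.31, 10.43 and 11.00, above both shams on all 4 (0.47 ± 0.23), as 11.6% of genes were. The 4 Gabra4 arrays, at 9.87 to 10.14, overlapped the range of the shams, at 9.76 and 10.01, and none lay below both. Here 0 subunits and 0% of genes passed (adjusted p = 1 for each subunit, limma), with 444 genes and no subunit at an unadjusted p below 0.05. Over both treatments, Gabrb2 and Gabrd lay below the shams on all 7 treated arrays, a pattern of 4.85% of genes. Gabrb1 lay above on all 7, as did 7.39%.

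Set 1 compared 3 agents with 1 sham array, which all 3 comparisons share. Gabra3, Gabra4, Gabrb2 and Gabrd were below that sham on all 9 treated arrays (4 of 7 subunits, against 12.2% of genes). Gabra2 was above on all 9, as were 11.2% of genes, although its lowest array and the sham both read 9.84 when rounded. Gabrb1 was below on 8 arrays, and Gabra5 above on 5 and below on 4. Because there is 1 sham, an unusual value on that array would enter every one of these counts. The fit has to assume that the lone sham varies like the treated arrays.

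Gabrd read 9.03 on the sham. With deoxycholate it was 8.31 at 7 h, 7.22 at 24 h and 7.53 at 48 h. Albumin gave 8.58, 8.15 and 7.44, and TGF-β1 gave 8.70, 8.10 and 8.39, at 8, 24 and 48 h. Every array lay below sham, and the 3 lowest were the later deoxycholate arrays and albumin at 48 h. The fitted mean difference over the 3 times was -1.35 ± 0.32 for deoxycholate (adjusted p = 0.114, limma). It was -0.98 ± 0.32 for albumin (adjusted p = 0.291) and -0.63 ± 0.32 for TGF-β1 (adjusted p = 0.772). The second Gabrd probe set gave -1.04, -0.96 and -0.72 in that order.

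Gabrb2 showed the tightest set of values. It read 12.34 on the sham and 11.67, 11.52 and 11.47 with deoxycholate. Albumin gave 11.90, 11.67 and 11.74, and TGF-β1 gave 11.83, 11.67 and 11.65. The 9 treated arrays had an SD of 0.13, and the highest was 0.44 below sham. The difference was -0.78 ± 0.15 for deoxycholate (unadjusted p = 0.00114, adjusted p = 0.0817, limma). It was -0.57 for albumin (adjusted p = 0.198) and -0.62 for TGF-β1 (adjusted p = 0.297). Its second probe set stood farther from sham, at -1.33, -1.08 and -1.25. For the probe set used, a fit of all 14218 genes with no filter left the deoxycholate and albumin differences unchanged. Only the SE was smaller there, 0.053 instead of 0.15. The deoxycholate value passed with no filter on low signals (adjusted p = 0.0375) and with a trended, robust prior, and the albumin value passed with no filter (adjusted p = 0.0426). Over all alternatives the adjusted p ran from 0.0375 to 0.163 for deoxycholate and from 0.0426 to 0.432 for albumin.

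Gabra3 read 7.66 on the sham and 6.60 to 7.26 on the treated arrays, with a median of 6.94. Its differences were -0.90 ± 0.26 for deoxycholate, -0.81 for albumin and -0.68 for TGF-β1 (adjusted p = 0.152, 0.281 and 0.593, limma). Gabra4 read 9.14 on the sham. With albumin it was 8.96, 8.17 and 8.71, with TGF-β1 8.77, 8.02 and 8.75, and with deoxycholate 8.90, 8.74 and 8.67. Its lowest values with albumin and TGF-β1 were those at 24 h, while those of deoxycholate lay within 0.23 of each other. The mean differences were -0.37 for deoxycholate, -0.53 for albumin and -0.63 for TGF-β1 (adjusted p = 0.467, 0.467 and 0.610). These are means over the 3 times, and fitted at 24 h, the time of the sham, they were -0.69, -0.85 and -0.95.

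For the other 3 subunits in set 1, Gabra2 differed by 0.47, 0.31 and 0.31 for deoxycholate, albumin and TGF-β1, Gabra5 by 0.12, 0.03 and 0.13, and Gabrb1 by -0.04, -0.25 and -0.12. None had an unadjusted p below 0.05.

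For each agent, 3 of 7 subunits had an unadjusted p below 0.05 with a lower value. These were Gabra3, Gabrb2 and Gabrd for deoxycholate (10.6% of genes) and for albumin (5.52%), and Gabra3, Gabra4 and Gabrb2 for TGF-β1 (2.56%). The shares of genes past the adjusted threshold were 0.469% for deoxycholate, 0.369% for albumin and 0% for TGF-β1, where 750 genes had an unadjusted p below 0.05. The subunits' median differences were -0.37, -0.53 and -0.62, against medians of -0.03, -0.02 and 0.01 over all 10019 genes. The mean of the 4 thalamic markers was 0.31 to 1.10 above sham on all 9 treated arrays. That of the 2 red cell markers was 0.56 to 2.82 above, and that of the 15 neuron markers between -0.40 and 0.06 of sham. Taken singly, 12 of the 15 neuron markers were lower with deoxycholate (lowest -0.86), 9 with albumin and 11 with TGF-β1. With albumin and with TGF-β1, 1 of the 4 thalamic markers was below sham. Their part in these differences was not tested.

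**Figure D2:**
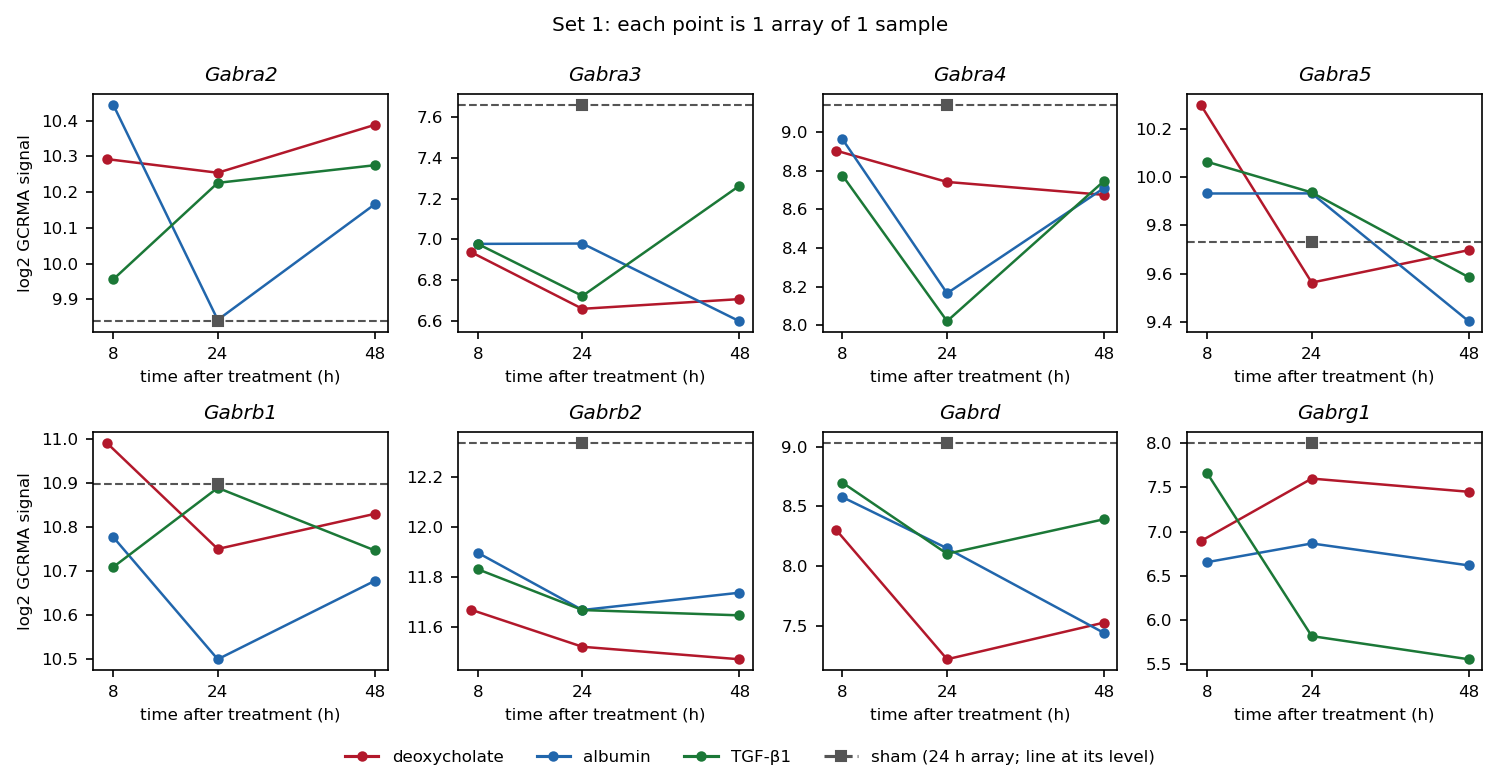
Log2 GCRMA signal (vertical axes, which differ between panels and do not start at 0) against hours after treatment for each subunit and Gabrg1 in set 1, with 1 array per point. The dashed line and square are the 1 sham array at 24 h, which lies above every treated array for Gabra3, Gabra4, Gabrb2, Gabrd and Gabrg1.

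The course over time compares the 3 agents' arrays at each time and uses no sham array. The only sham of set 1 was sampled at 24 h. A change over time that sham animals would also show therefore cannot be told apart from one that follows the agents. At 24 h all 7 subunits had lower means than at 7 or 8 h, against 45.3% of genes, and 0 of the 7 passed (0.798% of genes did). The median difference was -0.18, against 0.03 over all genes. Gabrd was lower by a fitted value of -0.70 ± 0.22 (unadjusted p = 0.0166, adjusted p = 0.246, limma), and each agent's 24 h array lay below all 3 early arrays. The same held for Gabra4, with -0.57 ± 0.17 (unadjusted p = 0.0137, adjusted p = 0.225). Gabrb2 was separated too, with a fitted difference of -0.18 ± 0.10. Its highest 24 h array and its lowest early array both read 11.67 when rounded. A separation of this kind, with the later arrays lower, was found for 7.97% of genes, and 6.01% had a lower value at an unadjusted p below 0.05.

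Between 24 and 48 h, Gabra4 and Gabrd had unlike values. Gabra4 was higher at 48 h by 0.40 ± 0.17 (adjusted p = 0.314, limma), with 8.67, 8.71 and 8.75 against 8.74, 8.17 and 8.02. Gabrd differed by -0.04, as the albumin array was lower at 48 h and the arrays of the other agents were higher. None of the 7 passed, against 1.41% of genes.

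Over the whole interval, 48 h against 7 or 8 h, Gabra5 and Gabrd had the largest differences. Gabra5 read 10.30, 9.93 and 10.06 on the early arrays and 9.70, 9.40 and 9.59 at 48 h, with no overlap. Its difference was -0.54 ± 0.17 (unadjusted p = 0.0152, adjusted p = 0.131, limma). It passed when the deoxycholate array at 24 h was left out, a fit in which 573 of 10019 genes passed. Gabrd differed by -0.74 ± 0.22 (unadjusted p = 0.0132, adjusted p = 0.122), but the 48 h value with TGF-β1, 8.39, was above the 7 h value with deoxycholate, 8.31. Gabra4 was again separated, with a fitted difference of -0.17, and its highest 48 h array read 8.75 against 8.77 on its lowest early array. In this comparison 0 of the 7 passed, against 5.09% of genes. The later arrays were lower without overlap for 9.22% of genes, and 8.21% had an unadjusted p below 0.05 with a lower value. Markers of other cells changed over the same interval. By limma, 6 of 7 microglia and macrophage markers rose (median 1.94), as did 4 of 7 meningeal (median 1.49) and 3 of 7 endothelial markers (median 0.77), and 2 of 2 red cell markers fell (median -1.38). The mean of the 7 meningeal markers was 1.24, 2.84 and 2.69 above sham at 48 h with deoxycholate, albumin and TGF-β1. The part of these markers in the subunit differences was not tested.

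The 2 probe sets of Gabrb2 disagreed about time. The second one was -0.81 lower at 24 h than at 7 or 8 h and 0.83 higher at 48 h than at 24 h. The one used here differed by -0.18 and -0.00. With the probe sets of a gene averaged, the 48 h value of Gabrb2 was 0.41 above that at 24 h. For 24 h against the early arrays, the brighter Gabrd probe sets gave -0.70 and -0.57.

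Between the agents, Gabrd had the largest difference. It was higher with TGF-β1 than with deoxycholate by 0.71 ± 0.22 (unadjusted p = 0.0155, adjusted p = 0.162, limma), the only 1 of 21 such subunit tests with an unadjusted p below 0.05. The second Gabrd probe set gave 0.32 for the same pair. In that pair 14.3% of genes had a higher value at that level. At matched times the Gabrd signals with TGF-β1 and deoxycholate were 8.10 and 7.22 at 24 h and 8.39 and 7.53 at 48 h. The early times were 8 h and 7 h, with 8.70 and 8.31. Between albumin and deoxycholate the subunits differed by -0.21 (Gabrb1) to 0.37 (Gabrd), and between TGF-β1 and albumin by -0.10 (Gabra4) to 0.34 (Gabrd). The 95% interval for Gabrd between TGF-β1 and albumin ran from -0.19 to 0.87. None of the 7 passed for albumin against deoxycholate (0.00998% of genes), TGF-β1 against deoxycholate (0.0299%) or TGF-β1 against albumin (0%, with 877 genes at an unadjusted p below 0.05).

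**Figure D3:**
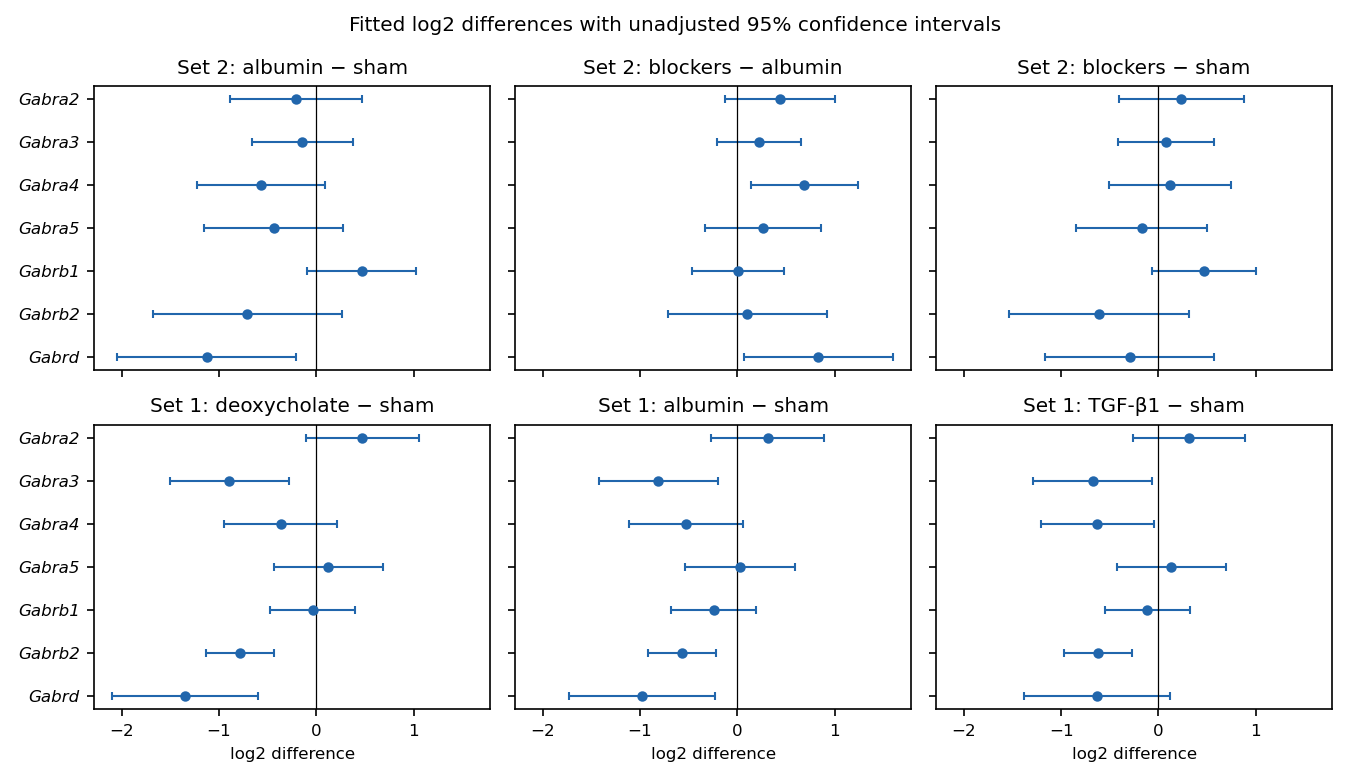
Fitted log2 difference (horizontal axis) of each subunit (vertical axis) in the 6 comparisons with sham or between the set 2 treatments, with bars for unadjusted 95% confidence intervals. Gabrd has the lowest value with albumin in set 2 and with deoxycholate and albumin in set 1, and no value passed after adjustment over all genes.

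Albumin at 24 h was measured in both sets. Gabrd was at -0.88 from sham on the set 1 array and at -1.13 on average in set 2. Gabrb2 was at -0.67 and -0.71, and Gabra4 at -0.97 and -0.57. Gabra3 was at -0.68 in set 1 and -0.14 in set 2, and Gabra5 at 0.20 and -0.44. Gabrb1 stood at -0.40 in set 1 and 0.46 in set 2. A fit of the difference between the sets gave an adjusted p of 1 for each of the 7 subunits over 9842 genes (limma). The smallest unadjusted p was that of Gabrb1, 0.0552, with a difference of 0.76 ± 0.36. That fit takes the set 1 value at 24 h from an additive model over all set 1 arrays, not from the 1 array at 24 h.

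The subunits varied together to different degrees. Over the 19 arrays, each centred on its set, Gabrd correlated with Gabra3 (Pearson r = 0.72), Gabrb2 (0.71), Gabra5 (0.70) and Gabra4 (0.63). With Gabrb1 the value was -0.13. Without albumin replicate 2 these values were 0.62, 0.50, 0.43, 0.31 and -0.17. In set 2 alone without that array, Gabrd had -0.53 with Gabra3, 0.32 with Gabrb2, 0.025 with Gabra5 and -0.70 with Gabrb1. In set 1 alone the values in that order were 0.83, 0.77, 0.51 and 0.21. Gabra4 and Gabrd had r = 0.88 in set 2, 0.24 in set 2 without that array and 0.32 in set 1. Gabra2 and Gabra3 had 0.66, -0.14 and -0.48. These are descriptions over arrays that share treatments. Among the 9841 other genes, those most like Gabrd were Nudt16l1 (r = 0.96), Ngef (0.96) and Sowaha (0.95). For Gabra4 they were Trim54 (0.92), Vopp1 (0.90) and Syndig1 (0.87), and for Gabra5 Qpctl (0.89), Efnb3 (0.88) and Hlf (0.88). For Gabrb2 they were Rgs12 (0.89), Ankh (0.86) and Jph3 (0.85), and for Gabra3 Rusc1 (0.85) with the presynaptic genes Pclo (0.84) and Syt1 (0.83). Gabra2 and Gabrb1 had looser neighbours, led by the calcium channel gene Cacna2d1 (0.82) and by Mlf1 (0.80). Next came Ctnnal1 and Lrrc23 for Gabra2 and Rpp14 and Srek1ip1 for Gabrb1. Without albumin replicate 2, the values for the 3 genes most like Gabrd were 0.94, 0.93 and 0.92, while Cacna2d1 with Gabra2 had 0.56. The leading genes of Gabra4, Gabra5, Gabrb2, Gabra3 and Gabrb1 then had 0.85, 0.74, 0.81, 0.82 and 0.80. In set 1 alone the leading genes ran from 0.42 (Mlf1 with Gabrb1) to 0.95 (Nudt16l1 with Gabrd).

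**Figure D4:**
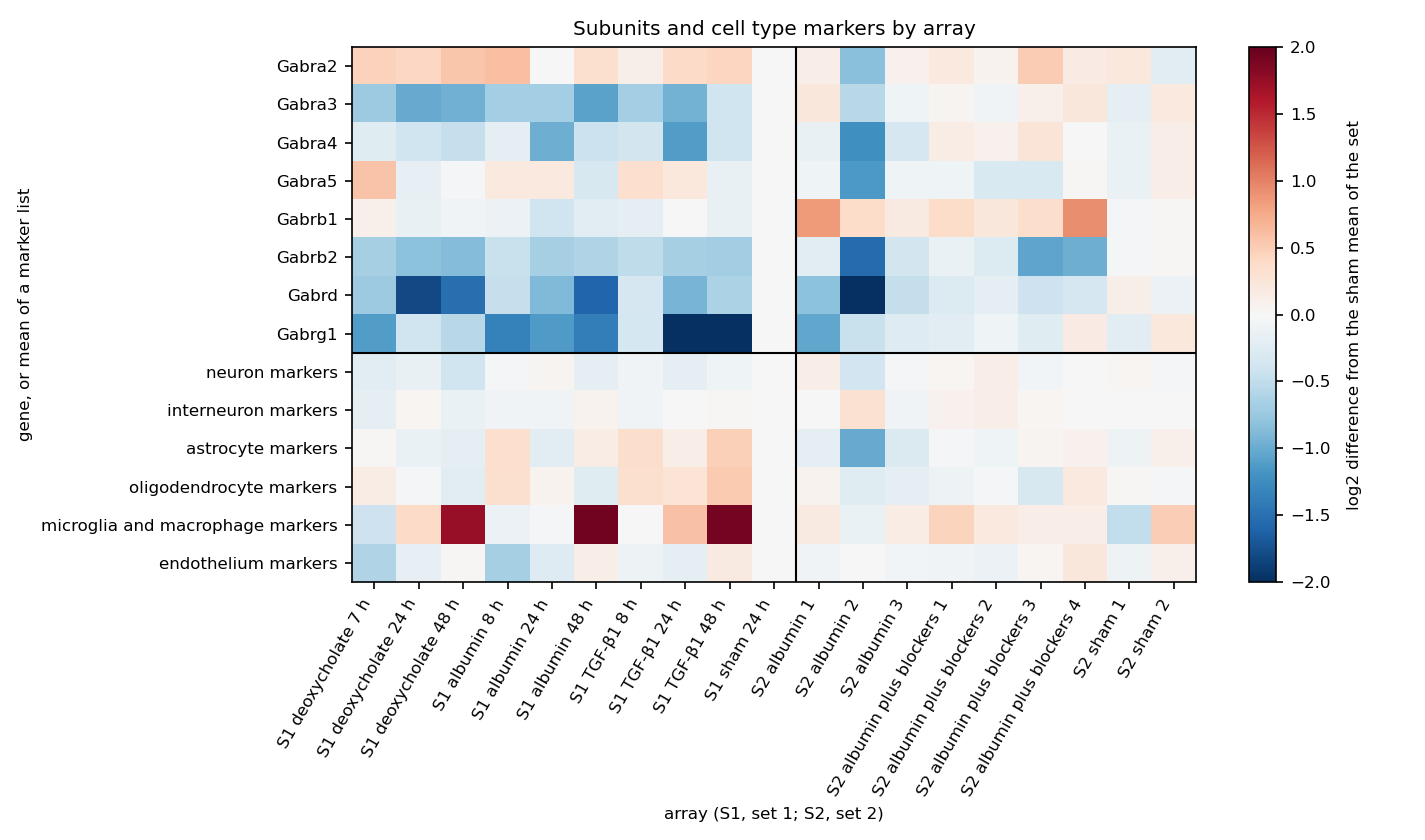
Log2 difference of each array (horizontal axis) from the sham mean of its set for the 7 subunits, Gabrg1 and the means of 6 marker lists (vertical axis), in colours that end at -2 and 2. Gabrb2 and Gabrd are below sham on all treated arrays of both sets, and the neuron marker mean stays between -0.40 and 0.13.

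Of the other GABA-A subunit genes, 9 had a probe set and 1, Gabrg1, passed the filter on low signals. The remaining 8 (Gabra6, Gabrg3, Gabre, Gabrq, Gabrp, Gabrr1, Gabrr2 and Gabrr3) read 1.79 to 2.99 on all 19 arrays. Gabrg1, a gamma subunit, read 8.01 on the set 1 sham and 5.56 to 7.66 on the 9 treated arrays, with a median of 6.87. Its lowest values were 5.82 and 5.56, with TGF-β1 at 24 and 48 h. The differences were -0.69, -1.29 and -1.66 for deoxycholate, albumin and TGF-β1, each ± 0.71 (adjusted p = 0.646, 0.553 and 0.670, limma). In set 2 it read 8.16 and 8.59 on the shams and 7.34, 7.93 and 8.11 with albumin, a difference of -0.58 ± 0.24 (adjusted p = 0.222). The blocker arrays were 0.49 above albumin (adjusted p = 0.287).

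Genes that anchor, traffic or assemble the receptor did not pass in any comparison (19 tested, 0 called). In set 2 with albumin, 10 of the 19 were lower, with a median of -0.01 against 0.02 over all genes. Akap5, which anchors kinases near the receptor, had -1.94 ± 0.89 (adjusted p = 0.255, limma), and with blockers 1.82 above albumin (adjusted p = 0.280). Rdx, which encodes radixin, the anchor of alpha5 receptors, had 0.35 with albumin and -0.32 with the blockers against albumin. Zdhhc3, an enzyme that palmitoylates receptor subunits, had 0.23 with albumin, and Nlgn2, the adhesion protein of inhibitory synapses, was 0.76 ± 0.25 above albumin with blockers (adjusted p = 0.228). Against sham, the blocker arrays had Gphn at 0.14, Plcl1 at 0.11 and Nsf at -0.12.

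In set 1, 14 of these 19 genes were lower with deoxycholate (median -0.15). The smallest p-values were those of the adhesion protein Slitrk3 (-1.45 ± 0.44, adjusted p = 0.170), Clptm1, which limits receptor assembly (-1.03 ± 0.32, adjusted p = 0.172), and Nlgn2 (-0.97 ± 0.35, adjusted p = 0.211, limma). With albumin, Slitrk3 had -0.81, Nlgn2 -0.57 and Plcl1 0.34. With TGF-β1, Akap5 had -1.10, Nlgn2 -0.61 and Rdx 0.44. Clptm1 and Slitrk3 were higher with TGF-β1 than with deoxycholate, by 1.07 ± 0.23 (adjusted p = 0.0975) and 1.14 ± 0.31 (adjusted p = 0.135), and Ap2m1 by 0.33. With albumin they were 0.57 and 0.63 above deoxycholate, and Akap5 0.63. Over time, Plcl1, which binds the receptor's beta subunits, was -0.51 ± 0.13 at 48 h against the early arrays (adjusted p = 0.0705). The auxiliary subunit Shisa7 was at -0.55 and Insyn1 at 0.35.

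For GABA itself, 7 genes of synthesis, breakdown and transport were tested and 0 passed. Aldh5a1, the last enzyme of GABA breakdown, had the largest difference with albumin in set 2, -0.76 ± 0.16 (adjusted p = 0.0631, limma), and was 0.49 above albumin with the blockers (adjusted p = 0.183). Abat, the GABA transaminase, had -0.26 and 0.20, and the synthetic enzyme Gad1 0.32 and -0.28. In set 1, Gad2, the other synthetic enzyme, was 0.86 ± 0.17 with deoxycholate (adjusted p = 0.0874), 0.37 with albumin and 0.36 with TGF-β1. Slc12a5, the chloride exporter KCC2 that keeps GABA inhibitory, had -0.45 with deoxycholate (adjusted p = 0.224), and Aldh5a1 had -0.56, -0.44 and -0.42 for the 3 agents. Slc12a2, the chloride importer, had 0.41 with albumin and 0.37 with TGF-β1. The vesicular transporter Slc32a1 was -0.62 ± 0.17 at 48 h against 24 h (adjusted p = 0.149).

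Of the GABA-B receptor genes, whose products couple to G proteins, Gabbr1 had -0.19 with albumin in set 2 and Gabbr2 0.16. Gabbr2 was 0.42 above sham with the blockers (unadjusted p = 0.0466, adjusted p = 1, limma). In set 1 the values ran from -0.40 (Gabbr2, deoxycholate) to -0.02 (Gabbr1, TGF-β1).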

How the data were processed

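Total RNA from rat somatosensory cortex was hybridised as biotin-labelled cRNA to 19 Affymetrix arrays, 10 in set 1 and 9 in set 2. The authors deposited log2 signals per probe set, which the submitters' processing notes attribute to GCRMA (version not given in the sources used here). Of 31099 probe sets, 20832 named 1 gene, 436 several and 9831 none, including 57 controls. The number of arrays limits the precision.

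Genes with a log2 signal above 4 on at least 2 arrays of a set were tested with limma 3.58.1 (R 4.3.3) at a Benjamini-Hochberg adjusted p below 0.05 over all of them (10330 in set 2, 10019 in set 1). Set 2 was 1 fit of 3 groups. Set 1 was an additive fit of agent and time, with a term for the lone sham, and times and agents were compared on the 9 treated arrays. Intervals are 95% and unadjusted. The fits were tested on simulated data.

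The subunits, the gene lists and the tests were chosen with earlier results of these data known. The rule named all 7 subunits, any other subunit past the filter, the genes of the other lists past the threshold, or else the 3 with the smallest p per comparison (some are left out of the text), and per subunit the 3 genes with the highest Pearson r. The promoter motifs, the test between the sets, and the medians and correlations without albumin replicate 2 were chosen after the data were seen. Same-numbered arrays of set 2 had deviations from their group means that correlated at -0.136 to 0.223. Between albumin and blocker arrays the same-numbered values were 0.223, 0.219 and 0.05, and those of unlike numbers ran from -0.26 to 0.185. The deviations of the 2 shams mirror each other, so their values cannot bear on pairing. The check does not decide whether the numbers are pairs, and the main fits did not take them as pairs. Figures were drawn with matplotlib 3.10.9.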

Additional observations from a re-analysis of the deposited data

Results flagged for a closer look

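Gabrb1 after albumin differed in direction between the sets. In set 2 all 3 albumin arrays were above both shams, and in set 1 all 3 albumin arrays were below the 1 sham. The 24 h values of set 2 and set 1, 0.46 and -0.40, rest on 1 albumin array in set 1. In a fit that takes the 24 h value of set 1 from an additive model over all its arrays, the difference from sham in set 2 exceeded that in set 1 by 0.76 (SE 0.36). By limma the unadjusted p was 0.0552 and the adjusted p over 9842 genes was 1, so the difference did not pass the test.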

How the results depend on the processing

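The count of subunits past the threshold was 0 in 86 of 90 alternatives to the 12 comparisons and in 107 of 108 fits that left out an array. The exceptions had 1 subunit each. For albumin against sham in set 2, Gabrd passed in the alternative where all 19 arrays shared a fit (-1.15), and 1240 of 10330 genes passed there. That fit has a set term but takes albumin against sham from the arrays of both sets, so its value is not a difference within set 2. Gabrb2 passed with no filter for deoxycholate and for albumin against sham in set 1, and for deoxycholate with a trended, robust prior. Leaving out arrays moved the count between 0 and 1 for 48 h against 7 or 8 h, where Gabra5 passed without the deoxycholate array at 24 h. In that fit 573 of 10019 genes passed. Over the alternatives, the number of all genes past the threshold ran from 1 to 1240 for albumin against sham in set 2 (137 in the fit reported), from 0 to 97 for blockers against albumin (2) and from 0 to 2 for blockers against sham (0). In set 1 it ran from 1 to 526 for deoxycholate against sham (47), from 2 to 597 for albumin (37) and from 0 to 11 for TGF-β1 (0). Between times it ran from 0 to 129, 35 to 173 and 167 to 620 (80, 141 and 510), and from 1 to 179 for TGF-β1 against deoxycholate (3). The causes were not tested.

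Of 630 subunit values under alternatives, 16 changed sign, and of 756 that left out an array, 44 did, none of them past the threshold. With a replicate block in set 2, Gabrb1 was at -0.15 for blockers against albumin and Gabra3 at -0.0067 for blockers against sham, and Gabrd was at -1.26 for albumin against sham. The block moved the count of all genes past the threshold from 137 to 53 for albumin, from 2 to 0 for blockers against albumin and from 0 to 1 for blockers against sham. With the neuron marker mean as a covariate, Gabrb1 was at -0.035 and Gabrb2 at -0.24 for blockers against albumin. With all 19 arrays in a fit, which pools both sets, Gabra3 was at -0.080 for blockers against sham. As the alternative to the set 1 differences from sham, that fit gave Gabra5 -0.066, -0.23 and -0.057 for deoxycholate, albumin and TGF-β1. Gabrb1 was at 0.28, 0.18 and 0.20 in that order. For 48 h against 24 h, Gabrb2 was at 0.41 with probe sets averaged and at 0.0095 with arrays centred on their median. For TGF-β1 against deoxycholate, Gabra5 was at -0.020 after a new quantile normalisation and at -0.044 with centred arrays, and for TGF-β1 against albumin Gabra2 was at -0.040 with centred arrays.

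Leaving out each array in turn gave these ranges. For albumin against sham in set 2, Gabra2 ran from -0.42 to 0.11 and Gabra3 from -0.35 to 0.063. For blockers against albumin, Gabra5 ran from -0.091 to 0.44, Gabrb1 from -0.15 to 0.20 and Gabrb2 from -0.31 to 0.35. For blockers against sham, Gabra3 ran from -0.13 to 0.28 and Gabra4 from -0.0051 to 0.25. In set 1, deoxycholate against sham gave Gabra5 from -0.0054 to 0.33 and Gabrb1 from -0.094 to 0.0023, and albumin against sham gave Gabra5 from -0.12 to 0.10. For 24 h against 7 or 8 h, Gabra2 ran from -0.29 to 0.077. For 48 h against 24 h, Gabra3 ran from -0.15 to 0.25, Gabrb1 from -0.037 to 0.16, Gabrb2 from -0.030 to 0.020 and Gabrd from -0.23 to 0.23. For 48 h against 7 or 8 h, Gabra2 ran from -0.12 to 0.25 and Gabra3 from -0.33 to 0.072. For albumin against deoxycholate, Gabra3 ran from -0.073 to 0.27, Gabra4 from -0.29 to 0.058 and Gabra5 from -0.31 to 0.031. For TGF-β1 against deoxycholate, Gabra2 ran from -0.29 to 0.0077, Gabra5 from -0.20 to 0.14 and Gabrb1 from -0.19 to 0.026. For TGF-β1 against albumin, Gabra2 ran from -0.16 to 0.20, Gabra3 from -0.081 to 0.29 and Gabra4 from -0.21 to 0.028.

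Set 1 has 1 array per agent and time and 1 sham, so a value of that sham enters each comparison with it and its own spread is not measured. Set 2 has 2 shams, and albumin replicate 2 widens the albumin group.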
